A study of Homo sapiens with 2 samples.

Results

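The 8 genes HNF4A, HNF4G, NR1H4, FOXA1, FOXA2, FOXA3, CEBPA and CEBPB code for transcription factors of the hepatocyte. They were taken by name from a table of transcript abundances and followed by gene and by isoform, as 8 of the 11590 genes compared. Their 35 annotated transcripts are a part of the 161838 transcripts that could be given a gene, and 28 of the 35 were above 0 in at least 1 library. The cells were HepG2, a human liver cancer line, carrying a Dox-on expression cassette for SAMD4B, a relative of Smaug, a fly protein that binds RNA. The library without Dox came from such cells grown in its absence, and the library with Dox from such cells given doxycycline (Dox) at 1 µg/ml for 48 h. Each group had 1 library of polyadenylated RNA, so no spread between replicates and no test can be given, and each difference is a difference between these 2 libraries. Both groups carried the cassette, and an effect of Dox itself cannot be told apart from an effect of SAMD4B.

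Hepatocyte identity is held by a small circuit of factors that bind each other's genes. HNF4A and HNF4G are nuclear receptors that bind DNA as homodimers. FOXA proteins are pioneer factors that open chromatin at liver enhancers. C/EBP proteins are leucine-zipper factors that drive plasma protein and metabolic genes, and NR1H4 codes for FXR, the bile acid receptor. HNF4A is transcribed from a pair of promoters. P1 serves adult liver, and P2 serves fetal liver, pancreas and gut and is also used in liver tumours. Proteins from P1 start with an activation domain that those from P2 lack.

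The 2 HNF4A promoters lay 45483 nt apart on chromosome 20 (GRCh38, plus strand). The first coding segments are shown because HNF4A is described by promoter below, and they show how its proteins begin, with the start codon in capitals. The P1 segment (chr20:44401373-44401487) is that of HNF4A-205. The P2 segment (chr20:44355805-44355853) is that of HNF4A-202. HNF4A-209 starts at P2 too, but its coding sequence opens in a later exon (chr20:44390640-44390679). The sequences are from GENCODE release 29.

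P1 start: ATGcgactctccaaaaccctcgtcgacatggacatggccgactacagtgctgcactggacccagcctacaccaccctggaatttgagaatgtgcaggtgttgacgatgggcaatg

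P2 start: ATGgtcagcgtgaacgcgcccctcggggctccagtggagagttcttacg

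HNF4A-209 start: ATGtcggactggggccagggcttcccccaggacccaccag

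A segment of 30 nt (chr20:44428458-44428487), in capitals, sets the splice forms of HNF4A apart near the C-terminus. A segment of 12 nt in NR1H4 (chr12:100532599-100532610), also in capitals, adjoins the DNA-binding domain of FXR, and forms with and without it differ in the sites they bind. Each is shown in its mature transcript with 30 nt of coding sequence on either side.

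HNF4A with the segment: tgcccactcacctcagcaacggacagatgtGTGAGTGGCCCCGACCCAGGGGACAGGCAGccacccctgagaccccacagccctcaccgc

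HNF4A without it: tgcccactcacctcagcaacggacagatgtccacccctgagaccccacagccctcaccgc

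NR1H4 with the segment: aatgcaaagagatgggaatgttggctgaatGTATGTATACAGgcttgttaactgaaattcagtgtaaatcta

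NR1H4 without it: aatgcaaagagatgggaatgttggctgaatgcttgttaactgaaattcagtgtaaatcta

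The values are TPM, a transcript's share of all transcripts after correction for its length. Low values moved in steps, which gave an estimate of depth of 18557114 fragments without Dox, against 24074548 with Dox. Estimated fragments are given beside TPM, with the ratio of the library with Dox to that without Dox after division by depth. Its exact 95% binomial interval covers counting error only, and neither variation between cultures nor the sharing of fragments among isoforms. Depth was summed over the transcripts that could be given a gene, and the fragment scale differs slightly from that of TPM. For CEBPA and CEBPB, with 1 transcript each, fragment ratios were 0.577 and 0.921, beside TPM ratios of 0.592 and 0.945. The interval does not cover this difference of scale. SAMD4B was at 47.5 TPM without Dox, against 261 with Dox, higher with Dox as the labels have it. Of the markers of hepatocytes, all 10 were above the filter of a mean of 1 TPM. Their sum was 29632 TPM without Dox, against 26625 with Dox, and 9 of 10 were lower, where 47% of all genes compared were. The part of these markers in the results was not tested. The stromal list summed to 66.2 and 44.2 TPM, most of it ACTA2 at 61.3 and 36.7, while PDGFRB was at 4.11 and 7.35 TPM and COL1A1, COL1A2, DCN and LUM were at 0.38 TPM or less. The intestinal list summed to 3.29 and 3.47 TPM, the endothelial list to 4.59 and 4.70, the leukocyte list to 17.7 and 20.8, and the cholangiocyte list to 208 and 194. PTPRC, CD3E, VWF, KRT7, CFTR, CDX1 and MUC2 were listed at 0 in both libraries. Mitochondrial transcripts held 10.2% and 11.2% of the TPM.

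All 8 genes passed the filter. CEBPA and NR1H4 were at least 1.5-fold lower with Dox on the scale of TPM plus 1 (2 of 8 genes), where 3.9% of all genes compared were. HNF4G was at least 1.5-fold higher (1 of 8), where 5.31% of all genes were, and it was also past 2-fold, as 1.62% of all genes were. None of the 8 was 2-fold lower, as 0.966% of all genes were. Of the 8 genes, 4 were higher by any amount, beside 53% of all genes. HNF4A was lower by less, and FOXA1, FOXA2, FOXA3 and CEBPB lay within 6% of their level without Dox in TPM. The median log2 fold change of the 8 genes was -0.04, and that of all genes compared was 0.02. In bulk RNA, fewer cells of a kind and less RNA per cell cannot be told apart.

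**Figure D1:**
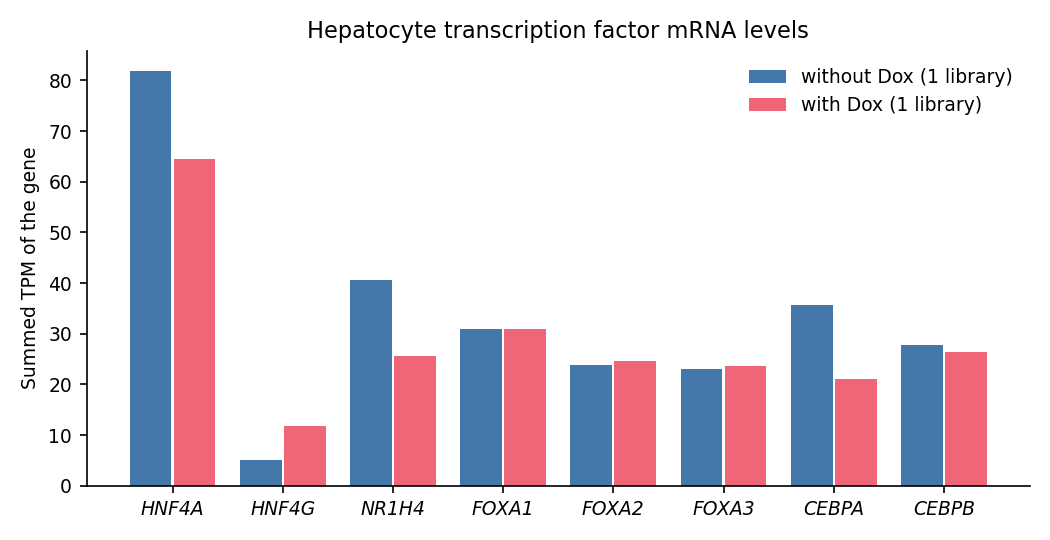
Bars show the summed TPM of each of the 8 genes in the library without Dox (blue) and with Dox (red), 1 library each, without error bars. HNF4A was the most abundant in both libraries, and the bars of CEBPA and NR1H4 are lower with Dox.

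Of the nuclear receptors, HNF4A (ENSG00000101076, chromosome 20, 44355700 to 44434596, GRCh38) was the most abundant of the 8 genes. It was at 81.8 TPM without Dox, against 64.5 TPM with Dox, a log2 fold change of -0.34. It had 4480 and 4500 estimated fragments, a ratio of 0.774 (interval 0.743 to 0.807). It ranked 1389 from the lowest of the 11590 genes.

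The HNF4A difference was shared by both promoters. Transcripts starting at P1 summed to 19.8 TPM without Dox, against 15.3 with Dox, with a fragment ratio of 0.793 (0.702 to 0.897). Transcripts starting at P2 summed to 61.9 and 49.2 TPM, with a fragment ratio of 0.772 (0.738 to 0.807). These intervals overlap. P2 thus held 75.8% of HNF4A TPM without Dox and 76.2% with Dox. In estimated fragments its share was 88.4% (87.4 to 89.3) and 88.1% (87.1 to 89.0).

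Almost all of the P2 signal came from HNF4A-209 (ENST00000619550, 449 codons), at 60.3 and 47.7 TPM. HNF4A-202 (452 codons), the form with the P2 coding start shown above, was at 1.69 and 1.51 TPM. Of the 4763 nt of HNF4A-209, only 275 nt lie outside every P1 transcript of the annotation, and its last exon holds 3321 nt. The last 2343 nt, 49.2% of its length, lie past the end of HNF4A-204 and in no P2 transcript but this. HNF4A-203, a P1 transcript that covers a part of them, was listed at 0. HNF4A-201, a P1 transcript whose last exon runs further still, was at 0.81 and 0.99 TPM. The level assigned to P2 therefore rests on fragments of the shared last exon as well as on first exons, and the part of each was not tested. The versions of HNF4A-201 in the table and the annotation differ, so its length there is uncertain.

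Among P1 forms, HNF4A-205 (417 codons), which ends early with its own last exon, was at 10.7 and 8.42 TPM. HNF4A-204 (464 codons), without the 30-nt segment, was at 8.27 and 5.91 TPM, with a fragment ratio of 0.698 (0.578 to 0.841). Transcripts with the segment summed to 62.8 and 50.2 TPM, or 76.8% and 77.8% of the gene. The remaining 4 HNF4A transcripts were listed at 0 in both libraries. The largest change of share of any HNF4A transcript was 0.95 percentage points. Among 8455 genes with several transcripts and at least 5 TPM in both libraries, the median of this largest change was 6.92 points, and 8.72% of genes had a change as small. Of the 8 genes, 5 belonged to these 8455 (HNF4A, NR1H4, FOXA1, FOXA2 and FOXA3). In none of these 5 did the leading transcript differ, where it did in 10.4% of the 8455, and none had a share move by 20 points, where 10.1% did. HNF4G was left out because it was at 4.98 TPM without Dox. Its leading transcript in TPM was HNF4G-204 without Dox and HNF4G-202 with Dox. The share of HNF4G-202 was 22.8% and 60.1%, a move of 37.3 points that rests on an estimated 2 and 16 fragments.

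NR1H4 (ENSG00000012504, chromosome 12, 100473708 to 100564413) was at 40.6 TPM without Dox, against 25.7 TPM with Dox, a log2 fold change of -0.64. Its estimated fragments were 775 and 663, a ratio of 0.659 (0.594 to 0.732). It ranked 370 from the lowest of the 11590 genes. With a pseudocount of 5 TPM, or in estimated fragments, its log2 fold change was -0.57 and -0.58, just short of 1.5-fold on that scale.

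The lower NR1H4 value lay mostly in transcripts from the upstream promoter. The 8 upstream transcripts summed to 34.5 TPM without Dox, against 20.2 with Dox, with a fragment ratio of 0.623 (0.554 to 0.699). NR1H4-201 (482 codons), the only downstream transcript above 0, was at 6.14 and 5.46 TPM, with a ratio of 0.868 (0.673 to 1.12). These intervals overlap, and upstream transcripts held 84.9% and 78.7% of the TPM.

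Taken as groups, NR1H4 transcripts with the 12-nt segment differed more than those without it. With the segment, NR1H4-203 was at 9.97 and 6.88 TPM and NR1H4-210 at 6.06 and 2.08 TPM, together 16.0 and 8.95. Their joint fragment ratio was 0.522 (0.445 to 0.612). Transcripts without it summed to 11.5 and 9.18 TPM, with a ratio of 0.795 (0.674 to 0.937). These intervals do not overlap, but they leave out the error of dividing fragments among isoforms that differ by so few bases. In estimated fragments the share with the segment was 50.4% (46.7 to 53.9) without Dox and 39.8% (36.1 to 43.7) with Dox. NR1H4-203 alone had a ratio of 0.671 (0.549 to 0.820), which overlaps the interval of the group without the segment. NR1H4-210 alone had 0.335 (0.252 to 0.441). Without the segment, NR1H4-202 was at 0.296 (0.152 to 0.550), NR1H4-201 at 0.868 and NR1H4-206 at 0.875. All transcripts above 0 with the segment start upstream, while NR1H4-201, which lacks it, starts downstream. Segment and promoter are therefore not separate contrasts.

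NR1H4-207 (425 codons), which skips the exon that carries the segment, was at 2.10 and 2.81 TPM, against the direction of the gene in TPM. Its fragment ratio was 1.30 (0.869 to 1.96), and this interval holds 1. NR1H4-206 was at 3.53 and 3.17 TPM, and NR1H4-202, annotated for nonsense-mediated decay, at 1.80 and 0.55 TPM. A group of short transcripts that end within the gene, NR1H4-204, NR1H4-205 and NR1H4-211, was at 7.99, 1.26 and 1.73 TPM without Dox and at 3.04, 0.57 and 1.09 with Dox. They code for at most 57 codons. They held 27.1% and 18.3% of the TPM but only 52 and 30 estimated fragments. The largest share change of NR1H4, 7.81 points for NR1H4-204, was reached by 44.9% of genes.

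HNF4G (ENSG00000164749, chromosome 8), the paralogue of HNF4A, was the least abundant of the 8 genes. Its fold change was the largest of the 8 in summed TPM, but smaller in size than that of CEBPA in estimated fragments and on coding transcripts. It was at 4.98 TPM without Dox, against 11.8 TPM with Dox, a log2 fold change of 1.09. Most of the difference lay in HNF4G-202, a processed transcript of 410 nt without a reading frame, at 1.14 and 7.07 TPM. Because its effective length was only about 129 nt without Dox and 126 nt with Dox, these values stood for an estimated 2 and 16 fragments. The coding transcript HNF4G-201 (408 codons) was at 1.57 and 2.51 TPM, or 33 and 66 fragments, a ratio of 1.54 (1.00 to 2.42). HNF4G-204, the other processed transcript, was at 2.28 and 2.19 TPM. HNF4G as a whole had 41 and 89 fragments, a ratio of 1.67 (1.14 to 2.49), below the TPM ratio of 2.36. On coding transcripts alone its log2 fold change was 0.45, and in estimated fragments 0.57, both short of 1.5-fold on the scale with a pseudocount.

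**Figure D2:**
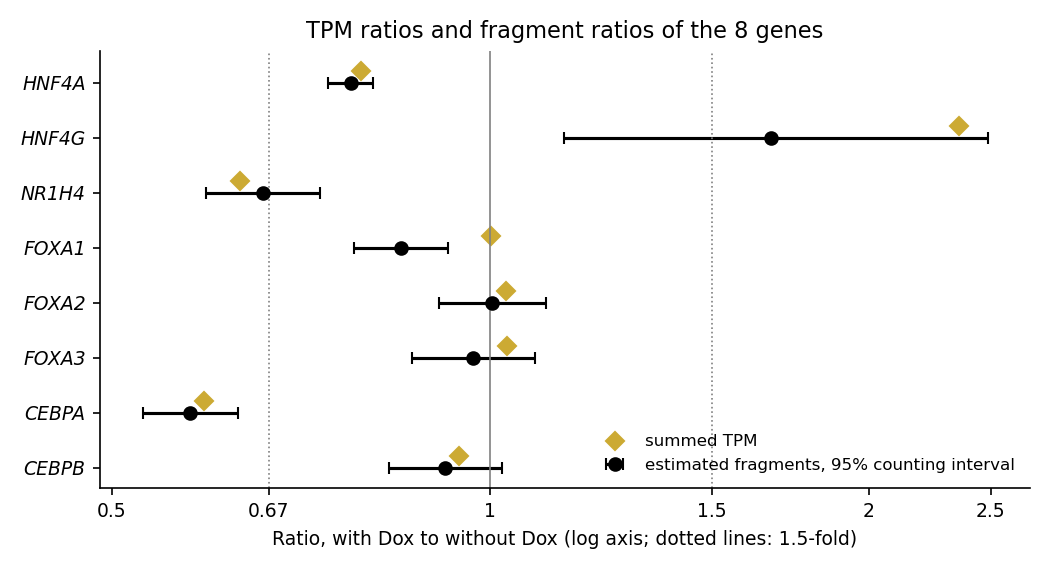
Ratios of the library with Dox to that without Dox for the 8 genes on a log axis, as summed TPM (diamonds) and as estimated fragments divided by depth (circles) with exact 95% counting intervals. Dotted lines mark 1.5-fold. CEBPA, NR1H4, HNF4A and FOXA1 have intervals below 1, HNF4G has an interval above 1, and the TPM and fragment ratios of FOXA1 and HNF4G lie furthest apart.

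The FOXA genes differed little in TPM. FOXA1 (ENSG00000129514, chromosome 14) was at 30.9 TPM in both libraries, FOXA2 (ENSG00000125798, chromosome 20) at 23.9 and 24.6 TPM, and FOXA3 (ENSG00000170608, chromosome 19) at 23.0 and 23.7 TPM. Their log2 fold changes were 0.00, 0.04 and 0.04. The fragment ratios of FOXA2 and FOXA3 were 1.00 (0.911 to 1.11) and 0.969 (0.867 to 1.08), and these intervals hold 1.

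In TPM, the even total of FOXA1 was made of unlike parts. FOXA1-201, its full coding transcript (472 codons), was at 26.6 TPM without Dox, against 23.0 TPM with Dox, a fragment ratio of 0.844 (0.774 to 0.921). The short processed transcript FOXA1-205 (392 nt), which begins upstream of the coding transcript, was at 2.42 and 6.71 TPM, an estimated 4 and 14 fragments. The ratio of FOXA1-205 was 2.70 (0.847 to 11.3), and this interval holds 1. Its share of FOXA1 TPM was 7.84% and 21.7%, a change of 13.9 points that 21.0% of genes reached. In estimated fragments FOXA1 had 1013 and 1115, a ratio of 0.848 (0.779 to 0.925). FOXA1-204 was at 1.10 and 0.55 TPM, and the other 2 transcripts stayed under 1 TPM.

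FOXA2 differed in its mix of starts. FOXA2-202 (463 codons), which starts in the nearer first exon, was at 12.9 TPM without Dox, against 17.0 TPM with Dox, with a fragment ratio of 1.29 (1.14 to 1.46). FOXA2-201 (457 codons), which starts in an exon further upstream, was at 11.01 and 7.55 TPM, with a ratio of 0.668 (0.569 to 0.784). The intervals lie on opposite sides of 1. The share of FOXA2-202 was 53.9% and 69.3%, a change of 15.4 points that 17.4% of genes with several transcripts reached. The isoforms differ in 202 nt and 181 nt of their own out of 2422 and 2401 nt, so most fragments of FOXA2 do not tell them apart. FOXA3 was carried by FOXA3-201 at 23.0 and 22.7 TPM. FOXA3-202 was listed at 0 without Dox and at 0.96 TPM with Dox, an estimated 4 fragments.

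**Figure D3:**
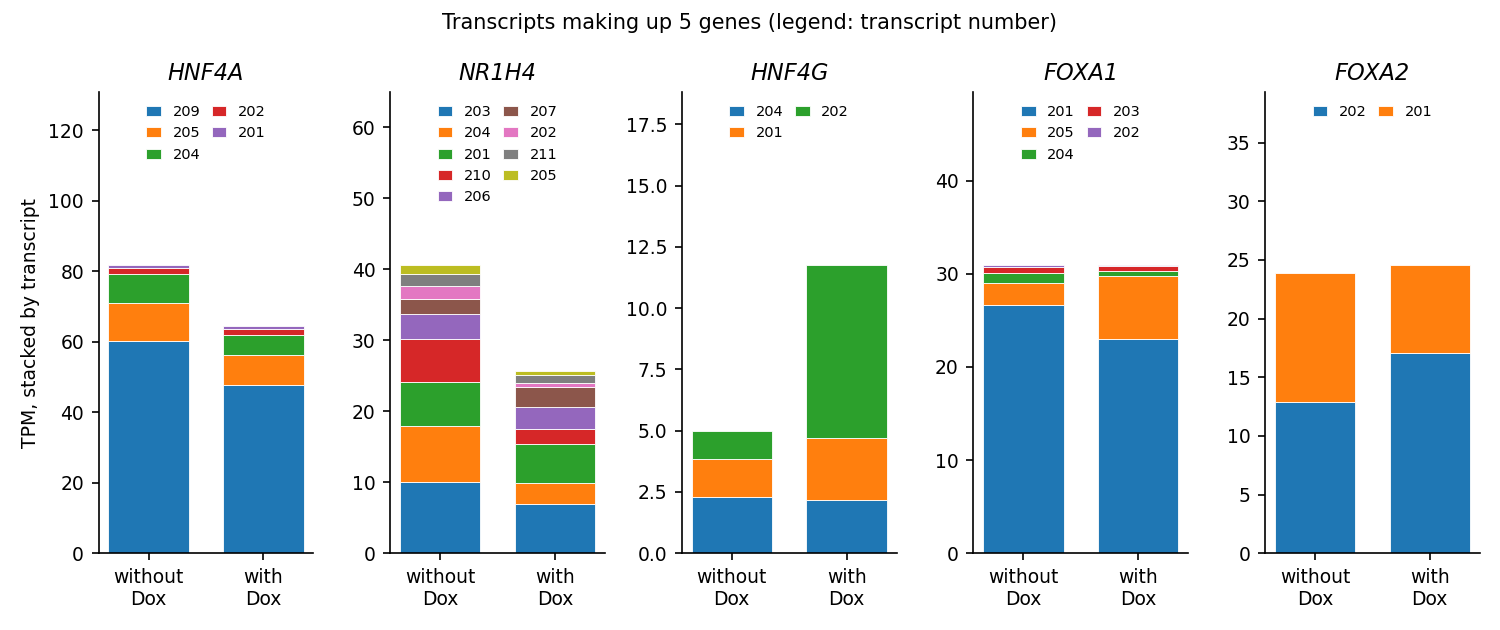
Stacked bars give the TPM of each transcript above 0 in HNF4A, NR1H4, HNF4G, FOXA1 and FOXA2, without and with Dox (1 library each), each panel with its own axis starting at 0. HNF4A keeps its proportions, HNF4G is taller with Dox, mostly by transcript 202, and FOXA1 and FOXA2 keep their height while their parts differ.

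The C/EBP genes have no introns and 1 annotated transcript each, so their values involve no division among isoforms. CEBPA (ENSG00000245848, chromosome 19, 33299934 to 33302564), a factor of differentiated and resting hepatocytes, was at 35.6 TPM without Dox, against 21.1 TPM with Dox. Its log2 fold change was -0.73. It had 1213 and 908 estimated fragments, a ratio of 0.577 (0.529 to 0.629), and ranked 253 from the lowest of the 11590 genes. CEBPB (ENSG00000172216, chromosome 20, 50190734 to 50192689), which is tied to growth and acute phase signals, was at 27.8 and 26.3 TPM. Its log2 fold change was -0.08, and its 674 and 805 fragments gave a ratio of 0.921 (0.830 to 1.02). CEBPA was the more abundant of the pair without Dox and the less abundant with Dox. Both mRNAs yield longer and shorter proteins from different start codons, which TPM cannot show.

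Genes around C/EBP were read from a list of 8 family members and partners, of which 7 passed the filter. Of these 4 were higher and 3 lower with Dox, where 53% of all genes compared were higher. The median log2 fold change of the list was 0.10. TRIB1, a pseudokinase that with the ubiquitin ligase COP1 directs the breakdown of C/EBP-alpha protein, was at 23.3 TPM without Dox, against 42.1 with Dox. Its fragment ratio was 1.75 (1.63 to 1.88), and it was the only member past 1.5-fold. COP1 was at 32.6 and 37.0 TPM, and TRIB2 at 8.38 and 7.28. DDIT3, a stress-induced C/EBP partner, was at 22.3 and 31.7 TPM, a ratio of 1.36 (1.14 to 1.63).

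Target genes of the 8 factors were read from lists drawn from general knowledge of the liver, which share many genes. TTR, APOA1, APOB, SERPINA1 and TF are in the HNF4A and FOXA target lists and among the hepatocyte markers above. ALB and AFP are FOXA targets and markers, and ALB and TTR are also C/EBP targets. The lists are therefore not separate observations. Of 34 HNF4A target genes, 24 passed the filter, and 18 of these were lower and 6 higher with Dox, where 47% of all genes compared were lower. Their median log2 fold change was -0.24, beside 0.02 for all genes, and -0.13 over the 32 members above 0 with no filter.

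Among HNF4A targets above 5 TPM, the clotting factor gene F11 was at 7.63 TPM without Dox, against 5.18 with Dox. CYP27A1, an enzyme of bile acid synthesis, was at 100.2 and 72.2 TPM, with a fragment ratio of 0.700 (0.663 to 0.738). SERPINC1, which codes for antithrombin, was at 139 and 101 TPM, a ratio of 0.722 (0.683 to 0.764), and APOC3 at 27.1 and 19.7 TPM. The 3 most abundant targets did not go the same way. APOA2 was at 12852 and 14590 TPM, while TF (transferrin) was at 3237 and 2722 TPM and APOA1 at 2760 and 2184 TPM.

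Of 24 genes that FXR induces, 17 passed the filter, and 12 of these were lower, where 47% of all genes were, and 5 higher, with a median of -0.20. Over the 24 members above 0, with no filter, the median was -0.05. NR0B2 (SHP), the corepressor that is the best known direct FXR target, was at 27.1 TPM without Dox, against 31.1 with Dox, a ratio of 1.12 (0.972 to 1.29). SLC27A5, which activates bile acids for conjugation, was at 27.5 and 17.8 TPM (0.656, 0.515 to 0.833), and SDC1, a syndecan, at 32.1 and 21.4 TPM (0.651, 0.601 to 0.705). KNG1 (kininogen) was at 9.73 and 7.79 TPM. ABCC2, an export pump for conjugates, was at 184 and 246 TPM (1.28, 1.26 to 1.31). SLC27A5, SLC51A and FETUB (3 of 17) were lower by 1.5-fold, where 3.9% of all genes were, but SLC51A and FETUB had 20 estimated fragments or fewer. The abundant targets C3, FGB and FGG had log2 fold changes of -0.06, -0.17 and -0.20. The list of genes that FXR and SHP repress had 1 of 4 members above the filter, APOA1, and CYP7A1 was listed at 0 in both libraries.

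C/EBP targets were 8 lower and 3 higher among 11 that passed of 21, where 47% of all genes compared were lower. The median of the list was -0.07, and -0.02 over the 17 members above 0 with no filter. HP (haptoglobin) was at 386 TPM without Dox, against 205 with Dox, a ratio of 0.519 (0.497 to 0.541). IGFBP1, an insulin-like growth factor binding protein, was at 39.2 and 73.1 TPM, a ratio of 1.82 (1.67 to 1.98). HAMP (hepcidin) was at 173 and 134 TPM. ALB, ORM1 and APOC3 had log2 fold changes of -0.13, -0.07 and -0.45. FOXA targets were 8 lower and 4 higher among 12 that passed of 15, where 47% of all genes compared were lower. The median of this list was -0.14. IGFBP1 and SLC27A5 were the members past 1.5-fold, TTR (transthyretin) was at 83.2 and 64.5 TPM, and AFP, the most abundant, at 13406 and 12140 TPM. These counts describe lists in 2 libraries, were read over members that passed the filter and are not tests of the factors.

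**Figure D4:**
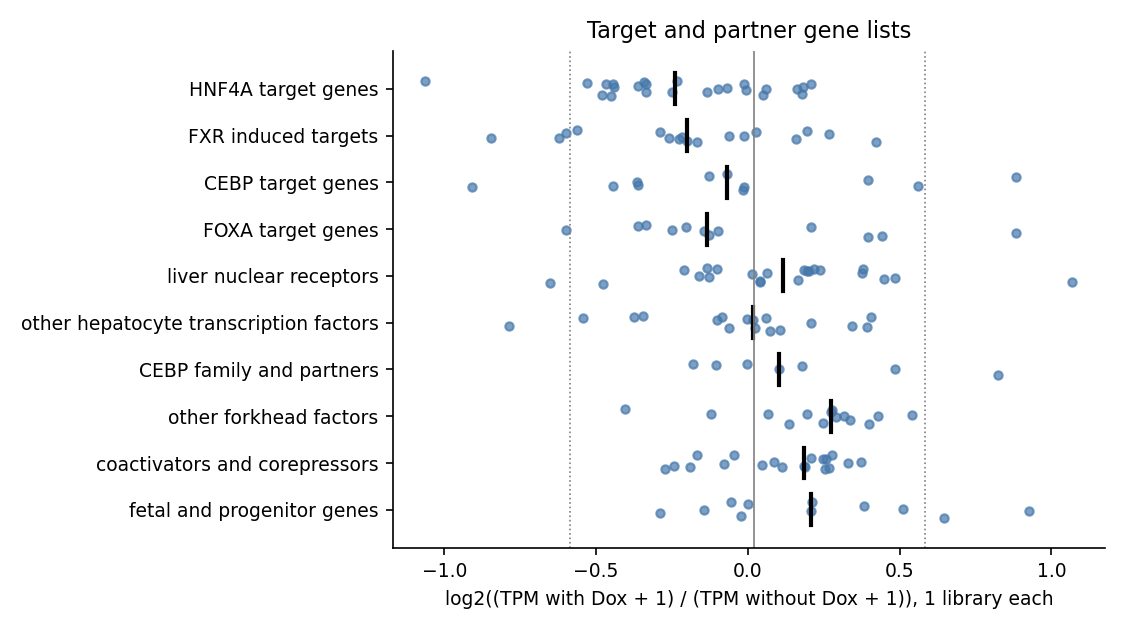
Each point is a gene above the filter, placed by its log2 fold change on the scale of TPM plus 1 (1 library each), in rows by list. Black bars are list medians, the grey line is the median of all genes at 0.02 and dotted lines mark 1.5-fold. The medians of the HNF4A, FXR-induced, C/EBP and FOXA target lists lie between -0.24 and -0.07, and that of the other forkhead factors is at 0.28.

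The other factors of the hepatocyte circuit were spread around 0. Of 18 further hepatocyte transcription factors, 17 passed the filter, 9 were higher and 8 lower, where 53% of all genes compared were higher. The median of the list was 0.02. GATA4 was at 12.96 TPM without Dox, against 9.75 with Dox, a ratio of 0.734 (0.633 to 0.851), HHEX at 36.5 and 42.3, KLF15 at 4.72 and 6.57, and NFIA at 4.80 and 6.35. The only member past 1.5-fold was ZBTB20, at 3.32 and 1.51 TPM, whose fragment ratio of 1.34 (1.19 to 1.52) went the other way. Only 57.6% of ZBTB20 TPM lay on transcripts long enough to be given fragments, so the 2 measures cover different transcripts.

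Among 28 nuclear receptors of the liver, 22 passed the filter, 15 were higher and 7 lower, where 53% of all genes compared were higher. The median of the list was 0.11. RXRA, the usual partner of FXR, was at 14.8 TPM without Dox, against 14.9 with Dox, a ratio of 0.983 (0.850 to 1.14). The clock repressors NR1D1 (5.95 and 8.74 TPM) and NR1D2 (10.97 and 15.3 TPM) had ratios of 1.43 (1.21 to 1.70) and 1.38 (1.26 to 1.51). NR2F1, a COUP-TF that competes for HNF4 sites, was at 16.3 and 11.4 TPM (0.704, 0.635 to 0.779), and NR2C2 at 9.85 and 13.1. RORA, at 1.27 and 3.77 TPM, was the only member higher by 1.5-fold, and VDR, at 3.57 and 1.91, the only member lower by as much.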

How the data were processed

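The authors deposited TPM values for 184844 Ensembl transcripts in 2 libraries. Salmon, Trimmomatic and the build GRCh38.p13 were used, per the submitters' processing notes. Tool versions and the annotation release were not given in the sources used here. Transcripts were matched by identifier without version to GENCODE release 29 (161838 matched, with 93.3% and 93.4% of the TPM) and summed per gene. Fold changes are log2 of the ratio of TPM plus 1, over 11590 genes with a mean of at least 1 TPM. HNF4A transcripts starting within 5000 nt of a first exon were given to that promoter.

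Depth was estimated from low single-transcript genes of at least 600 nt, where TPM times length less 300 nt fell within 0.1 of whole multiples of a fitted value for 86.0% and 86.1% of values. Shorter transcripts had offsets fitted to the same steps, and those under 280 nt got no fragments. Salmon divides fragments among isoforms, which no interval here covers. HNF4A-201, NR1H4-203, FOXA1-201, FOXA2-202, FOXA3-201, CEBPA-201 and CEBPB-201 have another version in the annotation, so their lengths and fragments are less certain. The scripts (Python 3.11.15, scipy 1.17.1) were tested on simulated data for transcripts of at least 600 nt only. The simulation covered neither the offsets of shorter transcripts nor the division of fragments among isoforms.

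Named genes are the 8 members, their transcripts at 1 TPM or more, SAMD4B, and of each list the 4 largest differences above 5 TPM and the 3 most abundant targets. Others were chosen after their values were seen. The members and lists were chosen with earlier results of these data known. A list of neighbouring noncoding RNAs was not analysed here. Some genes of the lists are counted but not reported here by name.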

Additional observations from a re-analysis of the deposited data

How the results depend on the processing

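All 7 alternatives kept CEBPA (-0.78 to -0.64), NR1H4 (-0.66 to -0.57) and HNF4A (-0.37 to -0.32) lower and HNF4G (0.45 to 1.22) higher, as log2 fold changes. Several of them could not have changed a sign, as a pseudocount alters only the size of a fold change. Leaving out noncoding transcripts, or those listed at 0 in 1 library only, left CEBPA at -0.73 and HNF4A at -0.34, as reported. On protein-coding transcripts alone HNF4G was at 0.45 and FOXA1 at -0.20, and in estimated fragments FOXA1 was at -0.23. The sign of FOXA3 was negative in 1 and that of FOXA1 in 3 of 7 alternatives. In estimated fragments the P2 share of HNF4A was 88.4% without Dox and 88.1% with Dox, and the change of share was -10.6 points for NR1H4 transcripts with the 12-nt segment, -2.19 for the short NR1H4 transcripts, 13.1 for HNF4G-202 and -0.53 for FOXA1-201, against -4.59, -8.70, 37.3 and -11.7 in TPM.

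Counts over all genes moved with the settings. With a pseudocount of 5 TPM, 235 genes were 1.5-fold and 55 were 2-fold higher, and 174 and 28 lower. With a pseudocount of 0.1 TPM, 296 were 2-fold higher and 186 lower. At a mean of at least 5 TPM, 344 and 71 were higher and 262 and 32 lower. Without transcripts listed at 0 in 1 library and at 1 TPM or more in the other, 120 were 2-fold higher and 51 lower, and in estimated fragments 59 were 2-fold lower. As reported, 616 and 188 were higher and 452 and 112 lower. The leading transcript differed in 876 of 8455 genes, in 347 of 4914 at 20 TPM or more and in 570 of 7189 on coding transcripts, and a share moved by 20 points in 850 of 8455, or 148 of 4914 at 20 TPM or more. At a mean of at least 5 TPM, 4 of 12 other hepatocyte factors and 1 of 13 other forkhead factors were lower, against 8 of 17 and 2 of 14. Of the FXR-SHP repressed genes, 2 in place of 1 were lower in estimated fragments, without mitochondrial transcripts and without the filter. SAMD4B was at 2.44 as reported, and at 2.77 in estimated fragments, 1.86 without all-or-none transcripts and 2.84 on coding transcripts. By construction a larger pseudocount shrinks each fold change, a smaller pseudocount widens it, and a higher filter compares fewer genes. The cause of the other moves was not tested. The median of each target list stayed below 0 in all 9 alternatives, but with no filter it lay nearer 0 for HNF4A (-0.13 against -0.24), FXR-induced (-0.05 against -0.20) and C/EBP (-0.02 against -0.07) targets. The pseudocounts among these alternatives could not change the sign of any gene in the lists. No paired analysis was possible because each group had 1 library, and no library could be left out.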

Other observations

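Other forkhead genes, which are not part of the FOXA family, were mostly higher with Dox. Of 16 listed, 14 passed the filter and 12 of these were higher, where 53% of all genes compared were, with a median log2 fold change of 0.28 and none past 1.5-fold. FOXN2 was at 22.3 TPM without Dox, against 32.97 with Dox, with a fragment ratio of 1.36 (interval 1.28 to 1.44). FOXK2, a factor of metabolic gene control, was at 49.8 and 67.3 TPM, a ratio of 1.12 (1.06 to 1.17), and FOXJ2 at 5.43 and 7.48 TPM. FOXM1, a factor of the dividing cell, was at 34.5 and 25.8 TPM, a ratio of 0.682 (0.630 to 0.739), against the direction of the list.

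A list of coactivators and corepressors that work with these receptors, which also held the kinase gene SRC, was read too. Of its 19 genes, 13 were higher and 6 lower, where 53% of all genes compared were higher. The median of the list was 0.19, with none past 1.5-fold. The deacetylase SIRT1 was at 22.9 and 29.03 TPM (1.27, 1.18 to 1.36). The kinase SRC, which is known to phosphorylate HNF4A from P1, was at 76.0 and 92.3 TPM (1.29, 1.22 to 1.37), the acetyltransferase CREBBP at 17.95 and 21.8 TPM, and HDAC3 at 43.6 and 35.9 TPM (0.730, 0.666 to 0.801). Of 13 fetal and progenitor genes, 11 passed the filter, 6 were higher and 5 lower, near the 53% of all genes that were higher. The median was 0.21, but 0.01 in estimated fragments and 0.00 at a mean of at least 5 TPM. Of the 11, 2 were higher by 1.5-fold, where 5.31% of all genes were. IGF2, a fetal growth factor, was at 19.9 and 38.8 TPM (1.90, 1.77 to 2.03), and SPP1 at 0.91 and 1.99 TPM. LIN28B, a fetal RNA-binding protein, was at 36.4 and 47.7 TPM, KRT19 at 22.8 and 26.6 TPM, and EPCAM at 94.2 and 76.9 TPM.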
